A study of Homo sapiens with 8 samples.

Results

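The genes described here encode the machinery that copies DNA. The list of 53 genes covers origin licensing, the replication fork and the supply of nucleotides, and its members are listed by function. Of these, 52 had a row among the 18955 genes of the deposited single-cell count table. UHRF1, which brings the maintenance methyltransferase to newly copied DNA, had none. The cells were of the established human line SUM159, a triple-negative breast cancer of mesenchymal character, infected with a lentiviral library of DNA barcodes. They were sampled before treatment and after long-term passaging with drugs, and each of the 8 libraries is 1 preparation of single cells. The pre-treatment library had no drug, and DMSO was the vehicle. JQ1, which displaces BET bromodomain proteins from acetylated histones, was given at 100 nM, palbociclib, an inhibitor of the kinases CDK4 and CDK6, at 160 nM, and paclitaxel, which stabilises microtubules, at 0.6 nM. The other libraries were paclitaxel, palbociclib, JQ1+paclitaxel, JQ1+palbociclib and JQ1 alone from 2 experiments (JQ1-A and JQ1-B). JQ1-A shared its experiment with DMSO, paclitaxel and JQ1+paclitaxel, and JQ1-B with palbociclib and JQ1+palbociclib. All cultures other than pre-treatment had been kept for up to 18 passages, so the libraries hold cells that grew under the drug and not an acute response. A library pooled equal numbers of cells from the 3 cultures of a treatment, and 1 JQ1+palbociclib culture had died out during selection. Cultures cannot be told apart within a library, and a lower level per library cannot be told apart from fewer cells that express a gene.

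Replication starts when the origin recognition complex, with CDC6 and CDT1, loads the MCM2-7 helicase onto DNA in G1. CDC45 and the GINS complex then switch the helicase on, primase and DNA polymerase alpha start each strand, and the polymerases delta and epsilon extend it, held to DNA by the ring-shaped clamp PCNA. Many of these genes are switched on at the start of S phase by E2F transcription factors, which the retinoblastoma protein holds in check until CDK4 and CDK6 phosphorylate it.

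A promoter of 300 bases, 250 before and 50 after the start site, was found in RefSeq (GRCh38.p14) for 46 of the 53 genes. E2F motifs were searched on both strands as TTTCCCGC, TTTCGCGC, TTTGGCGC and TTTGCCGC, with overlapping matches counted. At least 1 match was present in 22 of the 46 promoters (47.8%), against 3.33% of all 27305 promoters of that length. CCAAT was present in 58.7% of the members' promoters and 35.7% of all. The CHR motif of many mitotic genes, searched as TTTGAA and TTCGAA, was in 4.35% of the members' promoters and 16.6% of all. The stretch from 150 bases before to 20 after the start site is printed for 4 genes, with E2F matches in capitals. They are both named subunits of DNA polymerase epsilon, which moved in opposite directions under JQ1, CDC45, which had the second largest fall, and PCNA. Among members, PCNA had the smallest p for the interaction of JQ1 and palbociclib, which was not called.
POLE2 (chr14:49688195-49688364, minus strand): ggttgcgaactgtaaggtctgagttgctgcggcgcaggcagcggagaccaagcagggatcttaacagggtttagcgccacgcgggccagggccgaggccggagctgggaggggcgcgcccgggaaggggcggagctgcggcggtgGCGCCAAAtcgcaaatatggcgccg
POLE (chr12:132687323-132687492, minus strand): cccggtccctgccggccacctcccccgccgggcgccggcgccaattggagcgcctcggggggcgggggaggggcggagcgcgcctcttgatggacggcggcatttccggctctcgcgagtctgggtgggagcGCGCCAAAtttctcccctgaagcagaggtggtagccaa
PCNA (chr20:5126603-5126772, minus strand): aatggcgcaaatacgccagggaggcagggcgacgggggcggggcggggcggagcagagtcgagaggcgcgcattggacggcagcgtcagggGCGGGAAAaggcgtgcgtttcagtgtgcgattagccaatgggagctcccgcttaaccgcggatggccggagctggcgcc
CDC45 (chr22:19479770-19479939, plus strand): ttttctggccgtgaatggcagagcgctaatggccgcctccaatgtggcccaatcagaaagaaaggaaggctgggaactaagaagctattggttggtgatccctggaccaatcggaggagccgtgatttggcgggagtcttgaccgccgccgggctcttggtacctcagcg
The match began 5 bases before the start site in POLE2, 18 before it in POLE and 59 before it in PCNA. CDC45 had no exact match in the window, but holds a stretch that differs from TTTGGCGC only in its last base. Only exact matches were counted, so such near matches are missed for all genes. Among members with a promoter, a match was found in 7 of 16 that were called lower with JQ1 (43.8%) and in 14 of the 29 other tested members (48.3%), so the motif was about as frequent in both sets.

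The libraries held 10621159 to 24240835 UMIs, that is, distinct captured RNA molecules, from 5738 cells, and 13 cell barcodes were shared between libraries. The mitochondrial share of the median cell was 3.72 to 3.96% in pre-treatment, DMSO and paclitaxel and 4.69 to 7.18% in the other 5 libraries. Markers of the line were present throughout, with VIM at 3279 to 4502 CPM (counts scaled to a common library total) and KRT18, CD44 and AXL above 89.4 CPM. ESR1 and PGR, the receptors that triple-negative cells lack, had 7 and 4 UMIs in all libraries together. The immune marker PTPRC had 16 UMIs, KRT5 had 11, COL3A1 stayed under 1.70 CPM, and CD68 lay at 7.71 to 12.1 CPM in all 8 libraries. CD3E and PECAM1 had no row in the table.

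The summed level of the 52 genes was lower in every library with JQ1 or palbociclib than in the others. It was 2601 CPM in pre-treatment, 2622 in DMSO and 2899 in paclitaxel. With JQ1 it was 1730 in JQ1-A, 1896 in JQ1-B and 1801 in JQ1+paclitaxel. It was 1721 in palbociclib and 1763 in JQ1+palbociclib. Relative to DMSO, the 5 libraries with JQ1 or palbociclib stood at 0.657 to 0.723, and paclitaxel at 1.11. The combination of JQ1 and palbociclib, at 0.673 (95% counting interval 0.663 to 0.683), lay between palbociclib alone at 0.657 (0.646 to 0.668) and JQ1-B at 0.723 (0.712 to 0.734). These intervals cover counting error only. Between libraries of the same exposure, the sum differed by a ratio of 1.01 for DMSO against pre-treatment and of 1.10 for JQ1-B against JQ1-A.

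Part of the difference in CPM was shared with most genes. Across the 4433 genes whose mean reached 20 CPM, the median log2 ratio to DMSO was -0.34 in JQ1-A, -0.27 in JQ1-B, -0.34 in JQ1+paclitaxel, -0.24 in palbociclib and -0.32 in JQ1+palbociclib. For the 26 members at that level it was -0.63, -0.52, -0.65, -0.70 and -0.61. When library totals were scaled by TMM (trimmed mean of M values, a scaling that centres most genes), the summed level relative to DMSO was 0.786 in JQ1-A, 0.842 in JQ1-B, 0.840 in JQ1+paclitaxel, 0.724 in palbociclib and 0.769 in JQ1+palbociclib. The direction was kept, and the distance from DMSO was smaller. All fold changes from the fit use TMM, and levels per library are plain CPM.

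Member by member, 37 of 52 genes (71.2%) had lower CPM in all 5 libraries with JQ1 or palbociclib than in any of the other 3, compared with 33.3% of all 9288 tested genes. Only POLE was higher in all 5, against 11.5% of all genes. The paclitaxel library was the highest of the 8 for 32 members, and no library with JQ1 or palbociclib was the highest for more than 3. This grouping was chosen after the values were seen, and the mitochondrial share was higher in the same 5 libraries. Its part in the result was not tested.

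**Figure D1:**
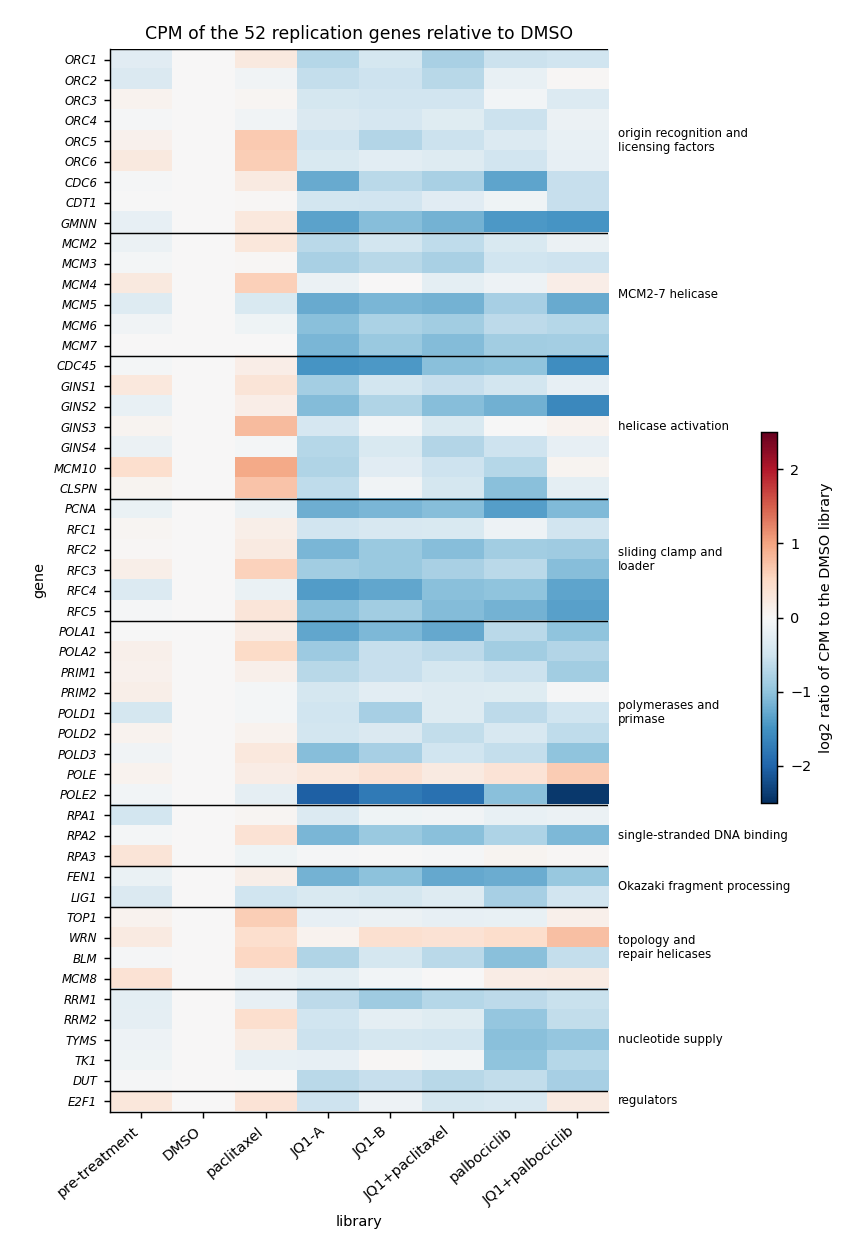
Colour gives the log2 ratio of CPM to the DMSO library for each of the 52 genes (rows, grouped by role) in each library (columns), from 1 library each. Most rows are blue in the 5 libraries with JQ1 or palbociclib, whereas POLE, WRN and RPA3 are not.

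The exposure test asked which genes differed in the 4 libraries with JQ1 from the 4 without it, with palbociclib and paclitaxel as additive terms. By the quasi-likelihood test of edgeR, with p adjusted over 9288 genes by Benjamini and Hochberg, 19 of 52 members (36.5%) fell with JQ1, compared with 19.7% of all genes, and 2 rose, compared with 17.8%. In either direction 40.4% of the members and 37.6% of all genes were called. All 52 members passed the filter on low counts, at least 5 CPM in at least 2 libraries. POLE2, POLA1 and BLM were under 5 CPM in every JQ1 library and passed it only through libraries without JQ1. The median fitted log2 fold change was -0.27 for the members and 0.00 for all genes, and 44 of 52 members were fitted lower (84.6%), against 50.2% of all. With library totals in place of TMM, the medians were -0.46 and -0.20. In that fit 24 members (46.2%) were called lower and none higher, compared with 31.4% and 9.31% of all genes. After TMM scaling, the JQ1 libraries lay wholly below the others for 8 members (15.4%, compared with 12.8% of all genes). They lay wholly above for 1 member (1.92%, compared with 11.7% of all genes). The share below was thus close to that of all genes, and the share above was smaller. The palbociclib library was low for most members and stands among the libraries without JQ1.

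The number of calls depended on single libraries. It was 11 without pre-treatment (21.2%, compared with 11.6% of all genes in the same fit) and 10 of the 51 tested without DMSO (19.6% and 13.1%). It was 8 without JQ1-A (15.4% and 9.93%), 11 without JQ1-B (21.2% and 11.5%) and 27 without JQ1+palbociclib (51.9% and 23.5%). Leaving out both palbociclib libraries, an alternative chosen after seeing the data, gave 24 members lower (46.2% and 21.8%). Within 3 matched pairs as blocks (JQ1-A with DMSO, JQ1+paclitaxel with paclitaxel and JQ1+palbociclib with palbociclib), POLE2 was the only member called (1.92%, compared with 2.34% of all genes called lower).

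**Figure D2:**
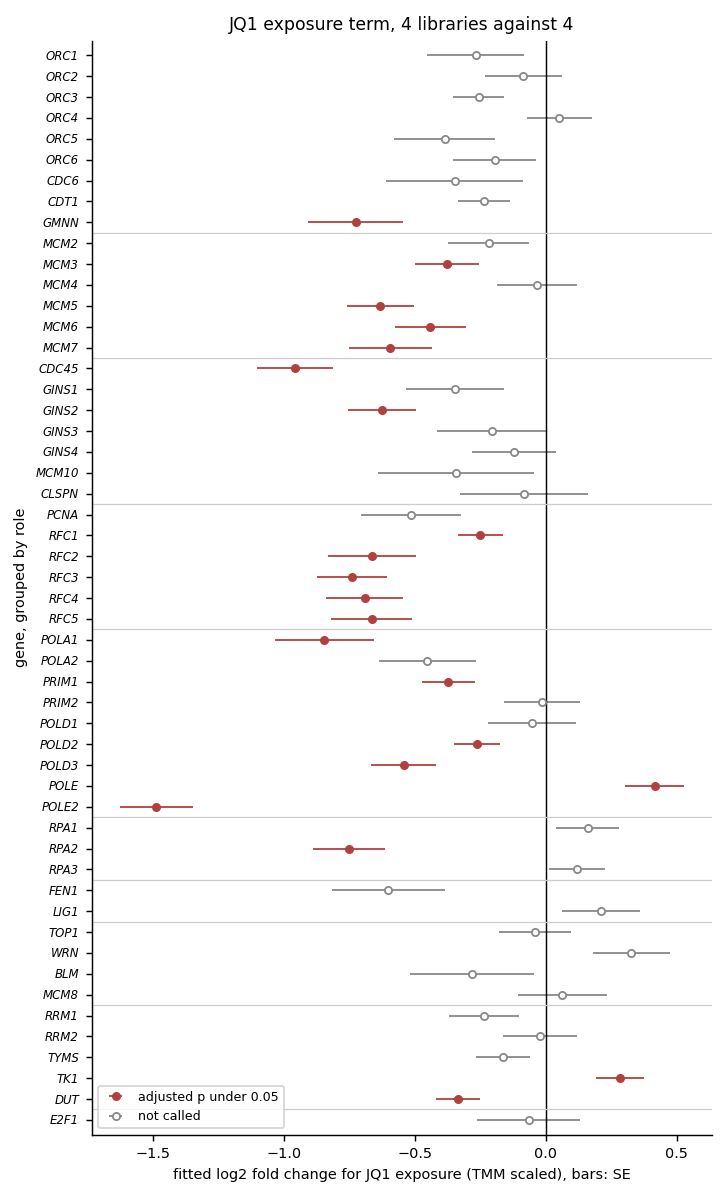
Points are the fitted log2 fold changes for JQ1 exposure (horizontal axis, TMM scaled) with their SE for 52 genes grouped by role, filled where the adjusted p is under 0.05. Most loader, helicase and polymerase genes lie left of 0, with POLE2 lowest at -1.49, whereas POLE and TK1 are the filled points right of 0.

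Among origin recognition and licensing factors, 1 of 9 genes fell with JQ1 (11.1%, compared with 19.7% of all genes) and the others did not pass the test. The gene that fell was GMNN, which encodes geminin, the protein that binds CDT1 and blocks relicensing after S phase begins. GMNN was at 68.4 CPM in pre-treatment, 78.5 in DMSO and 94.0 in paclitaxel. It was at 31.2 CPM in JQ1-A, 37.7 in JQ1-B, 34.6 in JQ1+paclitaxel, 29.2 in palbociclib and 28.3 in JQ1+palbociclib. The 5 libraries with JQ1 or palbociclib were all under the lowest of the other 3. The fitted change for JQ1 was -0.73 ± 0.18 (log2, SE, adjusted p = 0.0162), and the call was lost without DMSO or without JQ1-A. GMNN was also the member whose level over the 8 libraries was most like the sum of the others (Pearson r = 0.99 of log2(CPM + 1), a description over 8 libraries that share the cell line and, in part, their exposures).

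CDC6, the loading ATPase, was at 34.3 CPM in pre-treatment, 35.0 in DMSO and 41.2 in paclitaxel, and at 14.7 in JQ1-A, 22.1 in JQ1-B, 19.9 in JQ1+paclitaxel, 14.1 in palbociclib and 23.6 in JQ1+palbociclib. The 5 were again below the 3, but the JQ1 term was not called (-0.35 ± 0.26, adjusted p = 0.317), and the palbociclib library, without JQ1, was the lowest. The origin recognition subunits themselves differed less. ORC2 ranged from 7.11 CPM in JQ1+paclitaxel to 11.7 in JQ1+palbociclib, with 8.94 in pre-treatment, 11.5 in DMSO, 10.8 in paclitaxel, 7.60 in JQ1-A, 8.08 in JQ1-B and 10.1 in palbociclib. DMSO and JQ1+palbociclib were thus alike in ORC2. ORC5 was at 9.57 CPM in pre-treatment, 8.85 in DMSO and 14.0 in paclitaxel, and at 6.37 in JQ1-A, 5.32 in JQ1-B, 6.14 in JQ1+paclitaxel, 6.95 in palbociclib and 7.80 in JQ1+palbociclib. Paclitaxel was highest for ORC5 and no library with JQ1 or palbociclib reached the other 3. Their JQ1 terms were -0.09 ± 0.15 (adjusted p = 0.662) and -0.39 ± 0.19 (adjusted p = 0.140), and CDT1 was at -0.24 ± 0.10 (adjusted p = 0.0931).

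Of the 6 subunits of the MCM2-7 helicase, the ring that unwinds DNA, 4 fell with JQ1 (66.7%, compared with 19.7% of all genes). All 6 were fitted lower, although MCM4 turned to 0.067 (log2) with upper-quartile scaling. MCM5 had the largest fall, -0.63 ± 0.13 (adjusted p = 0.00726). It was at 22.7 CPM in pre-treatment, 28.4 in DMSO, 22.0 in paclitaxel and 15.9 in palbociclib, and at 11.9 in JQ1-A, 12.9 in JQ1-B, 12.5 in JQ1+paclitaxel and 11.9 in JQ1+palbociclib. The 4 JQ1 libraries did not overlap with the 4 others. MCM7 was at 80.6 CPM in pre-treatment, 80.1 in DMSO and 81.0 in paclitaxel, and at 36.5 in JQ1-A, 42.2 in JQ1-B, 37.7 in JQ1+paclitaxel, 44.2 in palbociclib and 44.5 in JQ1+palbociclib. Its 3 higher libraries differed by less than 1 CPM. The JQ1 change of MCM7 was -0.59 ± 0.16 (adjusted p = 0.0206).

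MCM3 was at 42.2, 43.5 and 44.4 CPM in pre-treatment, DMSO and paclitaxel. It was at 24.97 in JQ1-A, 26.9 in JQ1-B, 24.7 in JQ1+paclitaxel, 30.6 in palbociclib and 30.5 in JQ1+palbociclib, and fell with JQ1 by 0.38 on the log2 scale (SE 0.12, adjusted p = 0.0421). MCM6 was at 24.5, 26.0 and 24.2 CPM in the same first 3 libraries. In the others it was at 12.5 in JQ1-A, 15.02 in JQ1-B, 14.3 in JQ1+paclitaxel, 16.4 in palbociclib and 15.8 in JQ1+palbociclib (-0.44 ± 0.14, adjusted p = 0.0337). Both calls were lost in several alternatives, and MCM3 kept its call in 7 of 19. MCM2 was at 17.5 CPM in pre-treatment, 19.4 in DMSO and 23.5 in paclitaxel, and at 12.1 in JQ1-A, 14.1 in JQ1-B, 12.4 in JQ1+paclitaxel, 14.9 in palbociclib and 17.5 in JQ1+palbociclib. MCM4 was at 31.8, 26.8 and 40.3 CPM in pre-treatment, DMSO and paclitaxel, and at 24.1 in JQ1-A, 27.2 in JQ1-B, 22.8 in JQ1+paclitaxel, 24.5 in palbociclib and 30.0 in JQ1+palbociclib. In JQ1+palbociclib, MCM2 came close to pre-treatment and MCM4 was above DMSO, and neither was called (-0.22 ± 0.15 and -0.03 ± 0.15). Although the 6 proteins form 1 ring, their transcripts thus differed in how far they moved, and this inequality was not tested.

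Helicase activation genes fell in 2 of 7 cases (28.6%, compared with 19.7% of all genes). CDC45 (hg19 chromosome 22, 19466980-19508135) joins the MCM ring to form the active helicase. It was at 17.7 CPM in pre-treatment, 18.5 in DMSO and 20.8 in paclitaxel, and at 6.61 in JQ1-A, 6.85 in JQ1-B, 8.92 in JQ1+paclitaxel, 9.18 in palbociclib and 6.31 in JQ1+palbociclib. The 5 were far below the 3, and the JQ1 change was -0.96 ± 0.14 (adjusted p = 0.00268), a call lost only within the 3 matched pairs among 19 alternatives. GINS2, a subunit of the GINS complex, was at 56.0 CPM in pre-treatment, 63.9 in DMSO and 71.9 in paclitaxel. It was at 30.1 in JQ1-A, 38.1 in JQ1-B, 30.4 in JQ1+paclitaxel, 27.9 in palbociclib and 20.9 in JQ1+palbociclib, so that the combination was the lowest. The JQ1 change was -0.63 ± 0.13 (adjusted p = 0.00804). The other GINS subunits moved less, with GINS1 at -0.35, GINS3 at -0.21 and GINS4 at -0.12, none called. MCM10, which helps to open the helicase, was at 14.0 CPM in pre-treatment, 10.5 in DMSO and 20.1 in paclitaxel, and at 6.24 in JQ1-A, 8.57 in JQ1-B, 7.32 in JQ1+paclitaxel, 6.34 in palbociclib and 10.9 in JQ1+palbociclib. JQ1+palbociclib overlapped with DMSO for MCM10, and the JQ1 term was not called. CLSPN, the checkpoint mediator claspin, was at 86.6 CPM in paclitaxel and between 25.8 in palbociclib and 55.8 in pre-treatment elsewhere (JQ1 -0.08 ± 0.25, not called).

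Of the 6 genes for PCNA and its loader, 5 fell with JQ1 (83.3%, compared with 19.7% of all genes), and they were all 5 subunits of replication factor C. RFC3 was at 44.3 CPM in pre-treatment, 39.9 in DMSO and 59.9 in paclitaxel, and at 22.0 in JQ1-A, 20.9 in JQ1-B, 22.7 in JQ1+paclitaxel, 25.2 in palbociclib and 19.0 in JQ1+palbociclib. Its change was -0.74 ± 0.13 (adjusted p = 0.00505). RFC4, RFC5 and RFC2 had changes of -0.69, -0.67 and -0.66, and RFC1, the large subunit, the smallest at -0.25 ± 0.08 (adjusted p = 0.0465), which kept its call in 4 of 19 alternatives. PCNA was at 107 CPM in pre-treatment, 120 in DMSO and 108 in paclitaxel. It was at 51.7 in JQ1-A, 54.5 in JQ1-B, 57.5 in JQ1+paclitaxel, 46.0 in palbociclib and 56.0 in JQ1+palbociclib. The clamp was thus at a similar level in all 5 libraries with JQ1 or palbociclib, and its JQ1 term in the additive fit was -0.52 ± 0.19 (adjusted p = 0.0639).

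Polymerase and primase genes gave the largest fall and the largest rise of all members. POLE2 (hg19 chromosome 14, 50110273-50155140) encodes the second subunit of DNA polymerase epsilon, the leading-strand polymerase. POLE2 was at 14.9 CPM in pre-treatment, 15.5 in DMSO and 13.3 in paclitaxel, and at 7.55 in palbociclib. In JQ1-A it was at 3.77, in JQ1-B at 4.58, in JQ1+paclitaxel at 4.25 and in JQ1+palbociclib at 2.93. The JQ1 libraries formed the lowest level, palbociclib an intermediate one and the other 3 the highest, with no overlap. The JQ1 change was -1.49 ± 0.14 (adjusted p = 0.000708) and was called in all 19 alternatives, with values from -1.69 to -1.39. POLE2 passed the filter on low counts only through libraries without JQ1, where it was high. One alternative that kept the call used no such filter. POLE (hg19 chromosome 12, 133200339-133263962) encodes the catalytic subunit of the same enzyme. It was at 9.22 CPM in pre-treatment, 8.66 in DMSO and 9.79 in paclitaxel, and at 10.4 in JQ1-A, 11.2 in JQ1-B, 10.1 in JQ1+paclitaxel, 10.9 in palbociclib and 13.5 in JQ1+palbociclib. All 5 libraries with JQ1 or palbociclib lay above the other 3, by little in CPM. The JQ1 change of POLE was 0.42 ± 0.11 (adjusted p = 0.0222), which was not called with library totals in place of TMM. Both promoters hold an E2F match close to the start site, as printed above.

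POLA1, the catalytic subunit of polymerase alpha, was at 7.38 CPM in pre-treatment, 7.44 in DMSO and 8.47 in paclitaxel, at 4.65 in palbociclib, and at 3.03 in JQ1-A, 3.40 in JQ1-B, 3.07 in JQ1+paclitaxel and 3.71 in JQ1+palbociclib. As with POLE2, the JQ1 libraries lay below palbociclib and palbociclib below the rest. Its change was -0.85 ± 0.19 (adjusted p = 0.0109). It rests on few molecules, with 44 to 154 UMIs per library, and POLA1 too passed the filter only through libraries without JQ1. POLD3, PRIM1 and POLD2 fell by 0.54, 0.37 and 0.26 on the log2 scale, whereas POLA2 (-0.45), POLD1 (-0.05) and PRIM2 (-0.02) were not called.

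**Figure D3:**
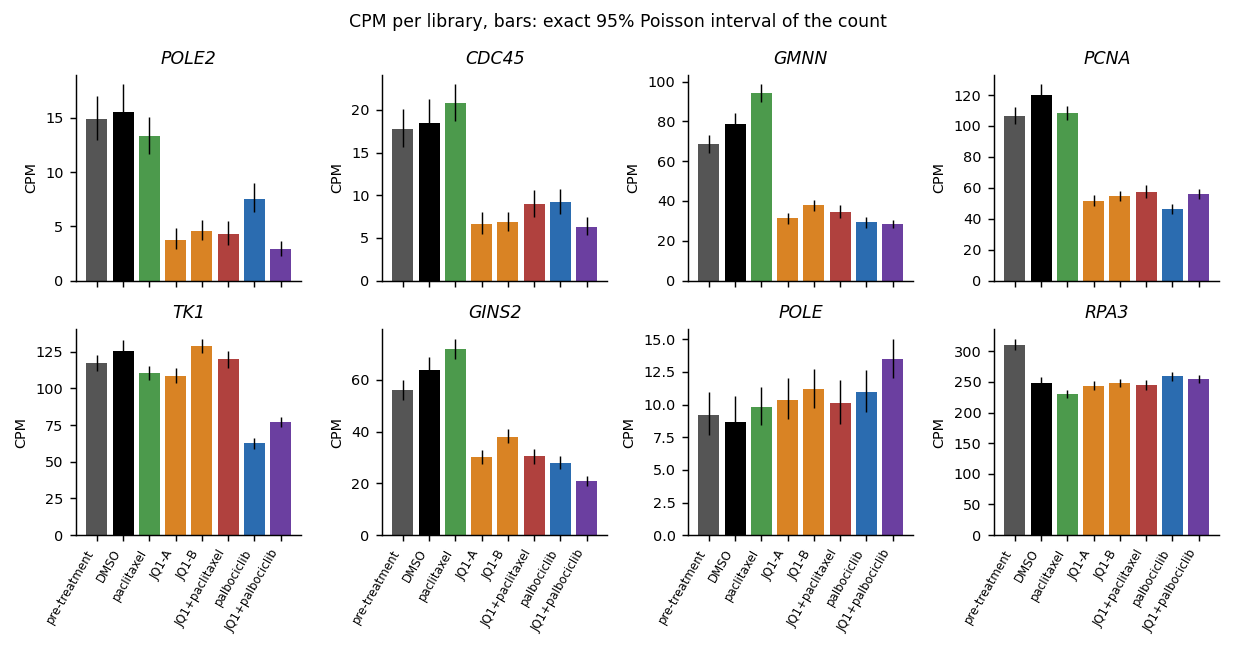
Bars give the CPM of 8 genes in each library, and lines the exact 95% Poisson interval of the count (counting error only). POLE2 is lowest in the JQ1 libraries, TK1 is low with palbociclib alone or combined, and POLE and RPA3 do not share the drop of the other genes.

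The subunits of replication protein A, which coats single-stranded DNA, split. RPA2 was at 44.3 CPM in pre-treatment, 45.6 in DMSO and 58.8 in paclitaxel, and at 20.6 in JQ1-A, 23.9 in JQ1-B, 22.2 in JQ1+paclitaxel, 26.6 in palbociclib and 20.8 in JQ1+palbociclib. It fell with JQ1 (-0.75 ± 0.14, adjusted p = 0.00546). RPA1, the large subunit, was at 28.9 CPM in pre-treatment, 39.5 in DMSO and 41.1 in paclitaxel, and at 31.1 in JQ1-A, 36.5 in JQ1-B, 37.1 in JQ1+paclitaxel, 35.0 in palbociclib and 35.8 in JQ1+palbociclib. RPA3, the small subunit and the member with the most UMIs, was at 311 CPM in pre-treatment and between 230 in paclitaxel and 259 in palbociclib in the other 7 libraries. For RPA1 and RPA3, libraries with and without JQ1 overlapped, and their JQ1 terms were 0.16 ± 0.12 and 0.12 ± 0.11, neither called. With library totals in place of TMM these became -0.04 and -0.08.

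FEN1, the nuclease that trims Okazaki fragments, was at 63.3 CPM in pre-treatment, 71.1 in DMSO and 78.8 in paclitaxel, and at 31.5 in JQ1-A, 35.0 in JQ1-B, 29.3 in JQ1+paclitaxel, 30.2 in palbociclib and 36.9 in JQ1+palbociclib. The pattern was that of PCNA, and the JQ1 term was likewise just short of the threshold (-0.60 ± 0.22, adjusted p = 0.0566). LIG1, the ligase that seals the fragments, ranged only from 6.95 CPM in palbociclib to 12.4 in DMSO and was not called (0.21 ± 0.15). None of the 4 genes for topology and repair helicases was called. TOP1, the topoisomerase that relieves supercoils, was at 131 CPM in pre-treatment, 123 in DMSO and 190 in paclitaxel. It was at 107 in JQ1-A, 112 in JQ1-B, 108 in JQ1+paclitaxel, 108 in palbociclib and 134 in JQ1+palbociclib, which was above DMSO. WRN, the helicase lost in Werner syndrome, was at 5.53 CPM in pre-treatment, 4.71 in DMSO, 6.27 in paclitaxel, 5.01 in JQ1-A, 6.21 in JQ1-B, 6.07 in JQ1+paclitaxel, 6.40 in palbociclib and 7.96 in JQ1+palbociclib. MCM8, a repair helicase related to the MCM ring, was at 7.16, 5.55 and 5.01 CPM in pre-treatment, DMSO and paclitaxel, and at 4.70 in JQ1-A, 5.32 in JQ1-B, 5.58 in JQ1+paclitaxel, 6.34 in palbociclib and 6.39 in JQ1+palbociclib. WRN and MCM8 were highest in JQ1+palbociclib and pre-treatment, respectively, and their JQ1 terms were 0.33 ± 0.15 (adjusted p = 0.113) and 0.06 ± 0.17.

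In the nucleotide supply group, 1 of 5 genes fell with JQ1 and 1 rose, shares of 20% each that were close to the 19.7% and 17.8% of all genes. DUT, which removes dUTP, was at 299.8 CPM in pre-treatment, 304 in DMSO and 302 in paclitaxel. It was at 191 in JQ1-A, 203 in JQ1-B, 189 in JQ1+paclitaxel, 198 in palbociclib and 171 in JQ1+palbociclib, a fall with JQ1 of -0.34 ± 0.08 (adjusted p = 0.0163). TK1, the S-phase thymidine kinase, followed another order. TK1 was at 117 CPM in pre-treatment, 126 in DMSO, 110 in paclitaxel, 109 in JQ1-A, 129 in JQ1-B and 120 in JQ1+paclitaxel, but at 62.6 in palbociclib and 77.1 in JQ1+palbociclib. Both palbociclib libraries lay below the other 6, and JQ1 without palbociclib did not separate from DMSO in CPM. Its JQ1 term was 0.28 ± 0.09 (adjusted p = 0.0424), which was not called with library totals and kept its call in 6 of 19 alternatives. RRM1 and RRM2 are the subunits of ribonucleotide reductase. RRM1 was at 54.7 CPM in pre-treatment, 64.4 in DMSO and 56.2 in paclitaxel, and at 40.8 in JQ1-A, 34.6 in JQ1-B, 39.0 in JQ1+paclitaxel, 40.7 in palbociclib and 43.8 in JQ1+palbociclib. RRM2 was at 122, 143 and 191 CPM in the first 3, and at 101 in JQ1-A, 121 in JQ1-B, 116 in JQ1+paclitaxel, 72.7 in palbociclib and 93.5 in JQ1+palbociclib. TYMS, thymidylate synthase, was at 132, 145 and 167 CPM in the first 3, and at 100.2 in JQ1-A, 106 in JQ1-B, 105 in JQ1+paclitaxel, 70.0 in palbociclib and 74.1 in JQ1+palbociclib. RRM2, TYMS and TK1 thus shared their lowest levels in both palbociclib libraries. None of RRM1, RRM2 and TYMS was called for JQ1. E2F1, the transcription factor, was at 28.0 CPM in pre-treatment, 23.2 in DMSO, 29.4 in paclitaxel, 16.2 in JQ1-A, 21.3 in JQ1-B, 17.1 in JQ1+paclitaxel, 17.5 in palbociclib and 27.0 in JQ1+palbociclib, where it was above DMSO. Its JQ1 term was -0.07 ± 0.20 (not called).

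Related genes outside the list were counted in the same fit, in which 19.7% of all genes were called lower and 17.8% higher. Of 21 tested other replication genes, 4 fell with JQ1 and 4 rose (19% each, again close to all genes), and the median was -0.03. Those that fell were MCMBP (-0.62), TIPIN (-0.51), DBF4 (-0.49) and RNASEH2B (-0.37), and those that rose were RNASEH2C (1.13), POLE4 (0.88), RECQL4 (0.67) and TIMELESS (0.48). POLE4, a small subunit of polymerase epsilon, thus moved in the direction of POLE and against that of POLE2. Of 14 genes for replication-coupled chromatin, 3 fell (21.4%, close to all genes) and 1 rose. In other nucleotide supply, 9 of 18 genes fell (50%, median -0.42), among them NME1 (-0.76) and CTPS1 (-0.64). The 2 that rose were SAMHD1 (0.75), which degrades deoxynucleotides, and RRM2B (0.64), the p53-inducible reductase subunit. Of 11 tested G1/S regulators, 3 fell (27.3%), with cyclin A (CCNA2) at -0.97. Of 28 mitosis genes, 13 fell (46.4%) and none rose (median -0.34).

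Palbociclib was tested as 2 libraries against 6, and no member was called in the additive fit by edgeR, while 26 of all genes were (0.28%). Both palbociclib libraries came from the experiment whose only other library was JQ1-B, and no drug-free library came from it. The level of palbociclib alone against DMSO thus cannot be told apart from a difference between experiments. With experiment as a term, the median of the members was -0.19, against 0.02 for all genes. At an unadjusted p under 0.05 there were 14 members (26.9%, compared with 22.1% of all genes), and DESeq2 called 5 members lower (9.62%, compared with 2.68% of all genes). The median of the members was -0.17, against 0.01 for all genes, and 36 of 52 (69.2%) were fitted lower, compared with 48.3% of all genes. The largest falls in the fit were GINS2 at -0.85 ± 0.16 (adjusted p = 0.0716), TK1 at -0.74 ± 0.12 (adjusted p = 0.0503) and POLE2 at -0.73 ± 0.17 (adjusted p = 0.0823). All 5 nucleotide supply genes were fitted lower, TYMS at -0.68, RRM2 at -0.49, DUT at -0.36 and RRM1 at -0.11. The highest values were WRN at 0.46, POLE at 0.35 and ORC2 at 0.34, none called. For 7 members the palbociclib libraries lay wholly below the others after TMM scaling (13.5%, compared with 7.39% of all genes), and 4 of these were nucleotide supply genes. When the JQ1+palbociclib library was left out, so that palbociclib alone was set against the rest, 13 members were called lower (25%, compared with 4.46% of all genes) and the median was -0.46, against 0.02 for all genes. Without the palbociclib library the median was 0.09, against 0.00, and none was called, compared with 0.0546% of all genes called lower.

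That dependence rests on 1 library of palbociclib alone and 1 of JQ1+palbociclib. A trait of a single library cannot be told apart from a difference between palbociclib given alone and given with JQ1. The interaction term rests on the same libraries. It also compares experiments, because no drug-free library shared the experiment of palbociclib. No member was called for the JQ1 by palbociclib interaction by edgeR, nor was more than 1 gene of all (0.0108%), with 2 residual degrees of freedom. DESeq2 called 1 member higher (1.92%, compared with 0.0754% of all genes), and 20 members had an unadjusted p under 0.05 (38.5%, compared with 17% of all genes). With 1 residual degree of freedom, 10 members were called higher without pre-treatment (19.2%, compared with 2.73% of all genes) and 10 without DMSO (19.6%, compared with 5.31%). The interaction was fitted above 0 for 47 of 52 members and below it for 9.62%, compared with 51.1% of all genes, with a median of 0.46 against -0.01 for all genes. A value above 0 means that the level under both drugs was higher than the single effects would add up to. The smallest p were those of PCNA (1.20 ± 0.20, adjusted p = 0.0883) and FEN1 (1.12 ± 0.21, adjusted p = 0.113). In CPM, PCNA in JQ1+palbociclib was 1.03 times its level in JQ1-B (counting interval 0.948 to 1.11) and 1.22 times that in palbociclib (1.11 to 1.33). The summed level was 0.930 times that of JQ1-B and 1.02 times that of palbociclib. Single members went either way against palbociclib alone, with CDC6 at 1.68 times, E2F1 at 1.55 times and RRM2 at 1.29 times its level, but GINS2 at 0.748 times. Against JQ1-B, ORC2 stood at 1.45 times, ORC5 at 1.47 times, TOP1 at 1.20 times and TK1 at 0.600 times. Each is a ratio of 1 library to 1 and was not tested.

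With paclitaxel the members tended upward without passing the test. No member was called by edgeR or DESeq2 (0% of all genes by edgeR), and 1 had an unadjusted p under 0.05, compared with 4.25% of all genes. The median was 0.14 for the members and 0.01 for all genes, and 43 of 52 were fitted higher and 9 lower (17.3%, compared with 47.5% of all genes). This tendency rested on the library of paclitaxel alone. Without that library the median of the members was -0.019, against -0.0019 for all genes. Without JQ1+paclitaxel it was 0.30, against 0.0097. The highest were MCM10 (0.45 ± 0.35), ORC5 (0.41 ± 0.23) and POLD3 (0.41 ± 0.15), and the lowest RPA3 (-0.11), MCM5 (-0.08) and LIG1 (-0.08). In the paclitaxel library alone, TOP1 was 1.54 times its DMSO level (counting interval 1.44 to 1.64). For the JQ1 by paclitaxel interaction no member was called by edgeR, against 0.388% of all genes, nor by DESeq2. There were 4 members with an unadjusted p under 0.05 (7.69%), a smaller share than the 17% of all genes. Of the 52 members, 34 were fitted below 0 (65.4%, compared with 52.2% of all genes), with a median of -0.15. TOP1 (-0.56 ± 0.18, adjusted p = 0.196) and CLSPN (-0.73 ± 0.28, adjusted p = 0.240) had the smallest p. The JQ1+paclitaxel library held 1.04 times the summed level of JQ1-A and 0.621 times that of paclitaxel, whereas paclitaxel alone held 1.11 times that of DMSO.

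A few members departed from the rest. The level of a gene was compared over the 8 libraries with the sum of the others, as a description only. The lowest Pearson r of log2(CPM + 1) were those of POLE (-0.69), WRN (-0.36), MCM8 (0.04), RPA3 (0.10) and RPA1 (0.24). Over all 52 members the median r was 0.88, and 36 members were over 0.80. After GMNN, the genes most like the sum were POLA2 and RFC5 (both 0.99). RPA3, DUT, POLD2, TOP1 and RRM2 together held 41.5% of the members' UMIs. Without these 5, the log2 ratio of the sum to DMSO was -0.76 in JQ1-A, compared with -0.60 with them.

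The same counts were then read cell by cell, in 5487 cells thinned to 10000 UMIs each, so that depth did not differ. In the median cell the members held 0.240% of UMIs in pre-treatment, 0.230% in DMSO and 0.280% in paclitaxel. In the other libraries it was 0.150% in JQ1-A, 0.170% in JQ1-B, 0.160% in JQ1+paclitaxel, 0.150% in palbociclib and 0.160% in JQ1+palbociclib. The 95th percentile was 0.420% in DMSO and 0.325% in JQ1-A, while the 5th was 0.100% and 0.0400%. In all 5 libraries with JQ1 or palbociclib, the 5th percentile was further below DMSO than the 95th as a ratio, and the 95th was further below as a difference in share. The ratio of these percentiles was 2.69 in paclitaxel, 3.50 in pre-treatment and 4.20 in DMSO. It was 5.0 in palbociclib and 5.17 in JQ1+palbociclib, and 8.14 in JQ1-A, 8.75 in JQ1-B and 8.50 in JQ1+paclitaxel. Relative to its level, JQ1 without palbociclib thus had the widest spread between cells, with the combination of JQ1 and palbociclib nearer to palbociclib alone. The variation between cells beyond counting (squared coefficient of variation) gave a similar order, with 0.0545 in paclitaxel, 0.0970 in pre-treatment, 0.120 in DMSO, 0.145 in JQ1+palbociclib, 0.179 in palbociclib, 0.233 in JQ1-B, 0.258 in JQ1-A and 0.283 in JQ1+paclitaxel. The SD of the share itself was not wider. It was 0.0933 to 0.0987% in JQ1-A, JQ1-B and JQ1+paclitaxel, 0.0853 to 0.0980% in the 3 libraries without JQ1 or palbociclib, and 0.0753 and 0.0778% in JQ1+palbociclib and palbociclib. The 5th percentile was lowest, at 0.0400%, in the 3 libraries with JQ1 and no palbociclib. Cells are not replicates, and these differences between single libraries were not tested.

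Cells with few replication transcripts were more frequent in the same 5 libraries. The share of cells under 13 UMIs per 10000, the lowest decile of DMSO, was 6.69% in pre-treatment (exact binomial 95% interval 4.80 to 9.03), 9.44% in DMSO (6.89 to 12.5) and 1.503% in paclitaxel (0.752 to 2.67). It was 39.2% in JQ1-A, 31.8% in JQ1-B, 38.6% in JQ1+paclitaxel, 38.8% in palbociclib and 32.8% in JQ1+palbociclib, with interval bounds between 28.6% and 43.1%. The intervals cover counting of cells only.

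**Figure D4:**
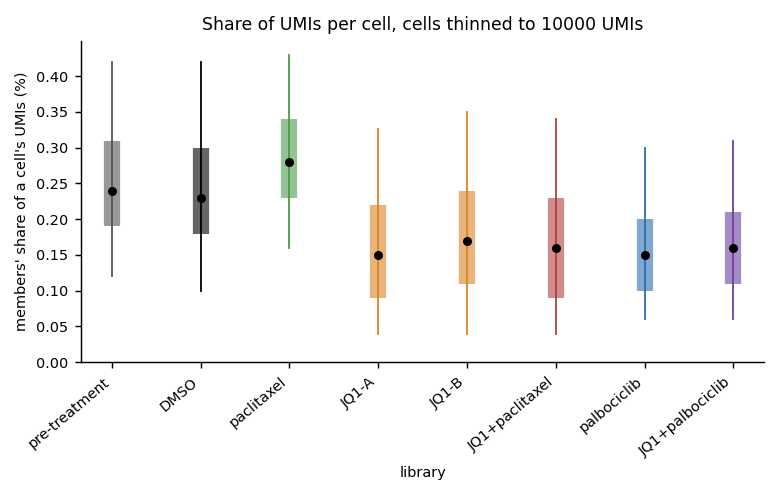
Points give the median share of UMIs (%) that the 52 genes held per cell in each library, thick bars the quartiles and thin lines the 5th to 95th percentile, in cells thinned to 10000 UMIs. The median is 0.230 to 0.280% in the 3 libraries without JQ1 or palbociclib and 0.150 to 0.170% in the other 5, whose lower ends reach 0.0400 to 0.0600%.

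To see whether the members moved apart from mitosis genes, cells were placed in 3 classes by their UMIs for the 28 mitosis genes, none of which is a member (up to 7, 8 to 20 and above 20 of 10000). The low class held 13.9% of cells in pre-treatment, 11.5% in DMSO and 2.46% in paclitaxel, but 43.8% in JQ1-A, 43.4% in JQ1-B, 47.9% in JQ1+paclitaxel, 48.3% in palbociclib and 51.7% in JQ1+palbociclib. Within the low class, the median share of the members was 0.190% in pre-treatment, 0.130% in DMSO and 0.205% in paclitaxel (18 cells), against 0.0900% in JQ1-A, 0.110% in JQ1-B, 0.0900% in JQ1+paclitaxel, 0.110% in palbociclib and 0.130% in JQ1+palbociclib. Within the high class it was 0.250% in pre-treatment, 0.240% in DMSO and 0.270% in paclitaxel, and 0.220%, 0.210%, 0.200%, 0.190% and 0.190% in the same order. The 5 libraries with JQ1 or palbociclib thus held more cells in the low class and had a lower share of the members within the high class than the other 3. Shares per cell are not scaled by TMM, and over whole libraries the median gene was also below DMSO. Its log2 ratio was -0.34 in JQ1-A, -0.27 in JQ1-B, -0.34 in JQ1+paclitaxel, -0.24 in palbociclib and -0.32 in JQ1+palbociclib. The lower share within the high class was therefore not shown to exceed the fall of most genes. Within the low class, JQ1+palbociclib, which had the largest low class, had a median equal to that of DMSO. These differences between single libraries were not tested.

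**Figure D5:**
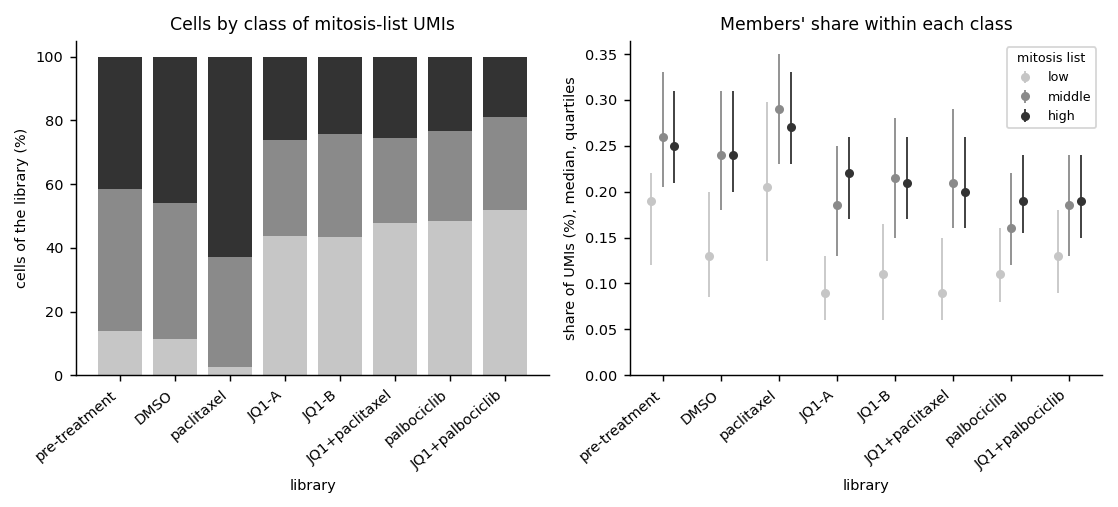
The left panel stacks the percent of each library's cells in the low, middle and high class of mitosis-list UMIs, and the right panel gives the members' share of UMIs (%, median with quartiles) within each class. Low-class cells make up 2.46 to 13.9% in the 3 libraries without JQ1 or palbociclib and 43.4 to 51.7% in the other 5.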

How the data were processed

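The authors prepared 10x Chromium 3' v2 libraries and deposited UMI counts per gene and cell. Per the labels, Cell Ranger, Seurat and the build hg19 were used. Deposited counts of all cells were summed per library. Genes with at least 5 CPM in at least 2 libraries (9288) were tested with edgeR 4.0.16 in R 4.3.3 (TMM, quasi-likelihood, adjusted p under 0.05). JQ1, palbociclib and paclitaxel were additive terms (4 residual degrees of freedom) or carried interactions with JQ1 (2). DESeq2 1.42.0 was an alternative. SE derive from the F statistic and are approximate. Nothing replicated a treatment within an experiment, so p-values measure the spread between these libraries. Per-cell values used the 5575 cells in which mitochondrial UMIs were 1 to 15% and 2000 or more genes were detected. Of these, 88 had too few UMIs for thinning. No doublet caller was run. A count shared with a pseudogene copy may be lost or split. Values in every library are given for the extremes of each term, the MCM2-7, nucleotide supply and departing genes, PCNA, E2F1 and genes that the study's text names. Exceptions are RPA3 and LIG1, given as ranges, and POLD3, given by its fitted values only. Members and lists were chosen with earlier results of these data known. CDC6 and further members given with single values were added after their values were seen.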

Additional observations from a re-analysis of the deposited data

Results flagged for a closer look

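In 72 arms of 4 libraries (36 measures, each with and without JQ1), 4 had a library whose gap to its nearest neighbour was above Dixon's critical share of the arm's range. The critical share would flag about 1 in 20 independent arms of like libraries. The arm without JQ1 holds the palbociclib library beside drug-free and paclitaxel libraries, and the measures vary together. The count therefore cannot be set against that rate. Among libraries without JQ1, palbociclib stood apart for MCM7 at 44.2 CPM, with the next at 80.1 and the highest at 81.0, for DUT at 198 CPM, with the next at 299.8, and for MCM3 at 30.6 CPM, with the next at 42.2. Among libraries with JQ1, JQ1+palbociclib stood apart for TOP1 at 134 CPM, with the next at 112 and the lowest at 107. Whether these gaps belong to the treatment or to the single library cannot be told apart. No interaction was called among the members.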

How the results depend on the processing

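The count of members called lower with JQ1 was 19, and 14 to 24 under DESeq2, the other scalings, filters and choices of cells. It was 11 with experiment as a term and 1 within the 3 matched pairs, which have fewer samples. It ranged from 8 to 27 over fits that left out 1 library. The share of all genes called lower ranged from 2.34 to 31.4% over the 19 alternatives. The count called higher was 2, compared with 17.8% of all genes. It was 0 with library totals only (9.31% of all genes) and 0 with experiment as a term (10.5%). It was 0 within the JQ1+paclitaxel experiment (15.7%) and 0 within the matched pairs (1.59%). It was 1 with no filter on low counts (10.8%) and 1 without cells above the 95th percentile of UMIs (17.7%). Over the fits without 1 library it was 0 to 2 (9.11 to 23.9%). For palbociclib, members called lower numbered 0, but 5 with DESeq2, 3 with no filter, 1 with cells passing the study's filter, 1 without the top cells by UMIs, and 0 to 13 without 1 library. The JQ1 by palbociclib interaction had 0 called higher, 1 with DESeq2, 9 with no filter, and 0 to 10 without 1 library. The JQ1 by paclitaxel interaction had 0 called lower, 2 with no filter, and 0 to 4 without 1 library. For palbociclib with no filter, 5.77% of members and 0.306% of all genes were called lower. These shares were 1.92% and 0.14% with the study's filter, and 1.92% and 0.0859% without the top cells. With no filter, 17.3% and 1.41% were called higher for the JQ1 by palbociclib interaction. For JQ1 by paclitaxel with no filter, 3.85% and 2.25% were called lower, which is close. Its 4 calls without pre-treatment were also a share close to that of all genes. The causes of these changes in count were not tested. For paclitaxel no alternative called a member. The shares of all genes for DESeq2, and for the counts of 13 and 10, are given with each term above.

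The log2 ratio of the summed CPM to DMSO kept its direction. Without the 5 members with most UMIs it was -0.76 in JQ1-A, -0.66 in JQ1+paclitaxel, -0.78 in palbociclib, -0.60 in JQ1-B and -0.71 in JQ1+palbociclib. With TMM-scaled totals, added after seeing the data, it was -0.35, -0.25, -0.47, -0.25 and -0.38 in that order. Median shares per cell moved by less than the spread between libraries of the same exposure under every alternative run.

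Small, uncalled values changed sign. With upper-quartile scaling JQ1 terms became 0.067 for MCM4, 0.079 for RRM2, 0.036 for E2F1, 0.014 for ORC2 and 0.062 for TOP1. With library totals only, they became -0.129 for MCM8, -0.078 for RPA3 and -0.036 for RPA1. Over fits without 1 library, they ranged from -0.159 to 0.138 for MCM4, -0.165 to 0.121 for RRM2, -0.313 to 0.085 for E2F1, -0.058 to 0.179 for MCM8 and -0.171 to 0.129 for TOP1. The palbociclib term of RRM1 became 0.170 with experiment as a term and ranged from -0.381 to 0.137 without 1 library. The paclitaxel term ranged from -0.276 to 0.053 for RPA3, -0.135 to 0.027 for MCM5, -0.230 to 0.080 for LIG1 and -0.202 to 0.926 for MCM10. No pairing by replicate number was possible because the groups share only number 1, a name, so the only blocks were the 3 matched pairs by co-treatment. Depth limits POLA1, BLM, ORC1, GINS3 and WRN, with 41 to 58 UMIs in their lowest library.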
